A study of Mus musculus with 15 samples.

Results

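The proteins of the cytosolic ribosome are each coded by a gene of their own, and these genes were followed here as 1 group in the embryonic mouse heart. Protein-coding genes were taken whose mouse symbol is Rps or Rpl with a number, with or without 1 of the letters a, x, y and l after it, or is Rplp0, Rplp1, Rplp2 or Rpsa. This gave 80 of the 55335 genes in the table, 31 of the small (40S) and 49 of the large (60S) subunit, spread over 19 chromosomes. Symbols with -ps (299 genes, of which 6 are annotated as protein-coding) and 3 symbols of the rule that are annotated as pseudogenes were left out, as were the kinases named Rps6k. The hearts came from embryos at E14.5 and were sequenced in 15 libraries. Those were 4 libraries of Adamts16+/- hearts, with 1 knockout allele of Adamts16, a gene for a secreted metalloprotease of the extracellular matrix; 4 of Adamts16+/H355Q hearts, with 1 allele coding for H355Q, a histidine-to-glutamine change; and 7 of WT hearts. Both mutant groups kept 1 WT allele, although the library names and the series text call the Adamts16+/- group a knockout. The labels do not say whether the libraries of a group came from separate embryos, so p-values measure only the spread between these libraries.

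Ribosomal protein genes are among the most strongly transcribed genes of growing cells, and their proteins are made in matched amounts, because a protein left without a partner in the ribosome is degraded. Most of their mRNAs start with a C followed by a run of pyrimidines, the TOP motif, through which mTORC1 and Larp1 set how much of the mRNA is translated. Loss of 1 copy of several of these genes causes Diamond-Blackfan anaemia in people, in which heart defects also occur.

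Promoter sequences are shown for the 3 genes of highest level with an entry in the RefSeq table (build GRCm38.p6) and for the 3 with the smallest p among the others with an entry, because the group is known for shared promoter features and moved together here. Each line runs 5′ to 3′ on the strand of the gene, from 120 bases before the annotated start to 30 bases after it. Capitals mark matches, on either strand, to any of the 8 motifs listed after the sequences.
Rplp0: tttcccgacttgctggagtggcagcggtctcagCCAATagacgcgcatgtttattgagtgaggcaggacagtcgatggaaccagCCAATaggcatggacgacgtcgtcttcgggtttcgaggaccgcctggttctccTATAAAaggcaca
Rps15: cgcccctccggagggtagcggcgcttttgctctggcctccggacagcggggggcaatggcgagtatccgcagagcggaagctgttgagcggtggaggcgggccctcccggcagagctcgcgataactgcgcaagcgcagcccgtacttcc
Rpl4: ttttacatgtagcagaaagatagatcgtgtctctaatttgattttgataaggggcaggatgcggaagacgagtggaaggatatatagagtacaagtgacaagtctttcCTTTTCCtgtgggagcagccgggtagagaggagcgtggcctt
Rps21: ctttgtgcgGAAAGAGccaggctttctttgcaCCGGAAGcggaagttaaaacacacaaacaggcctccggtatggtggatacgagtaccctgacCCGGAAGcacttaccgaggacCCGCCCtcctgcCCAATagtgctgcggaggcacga
Rpl27a: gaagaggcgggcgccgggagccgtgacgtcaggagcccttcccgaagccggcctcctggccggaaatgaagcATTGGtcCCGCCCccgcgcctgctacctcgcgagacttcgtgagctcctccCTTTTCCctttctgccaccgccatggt
Rps12: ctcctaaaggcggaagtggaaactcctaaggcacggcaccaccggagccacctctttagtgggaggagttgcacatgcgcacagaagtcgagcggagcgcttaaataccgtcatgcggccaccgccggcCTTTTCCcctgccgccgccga
Rplp0 lies at chr5:115559347-115559496 (plus strand), Rps15 at chr10:80292311-80292460 (plus), Rpl4 at chr9:64173267-64173416 (plus), Rps21 at chr2:180257259-180257408 (plus), Rpl27a at chr7:109519075-109519224 (plus) and Rps12 at chr10:23787180-23787329 (minus).

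Entries were found for 60 of the 80 genes. Over the whole 300-base entries, 250 bases before the start and 50 after it, CCGGAAG, the core bound by ETS factors, stood in 41.7% of the 60 promoters and in 13.3% of 16454 other protein-coding promoters. The pyrimidine words CTCTTTC (28.3% against 9.03%), CTTTTCC (16.7% against 9.13%) and CTTCCTTT (13.3% against 3.82%) were also held by more of the ribosomal protein promoters. GCCATNTT, the word of YY1, was in 18.3% and 7.55%. The GC box GGGCGG was in 60.0% and 51.0%, while TATAAA (10.0% and 14.4%) and CCAAT (31.7% and 42.1%) were held by a smaller share of the ribosomal protein promoters. In 22 of the 80 genes (27.5%) at least 1 annotated protein-coding transcript began with C and 4 or more pyrimidines, against 5.06% of 21734 other protein-coding genes. These are matches of letters in annotated windows and not measured binding sites.

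The libraries had an implied depth of 37.7 to 48.0 × 1e6 fragments in the Adamts16+/- group, 51.5 to 59.1 × 1e6 in the Adamts16+/H355Q group and 42.0 to 56.3 × 1e6 in the WT group, read from the spacing of low values. Levels are FPKM, fragments per kilobase of gene, scaled by library depth. Adamts16 itself was near the lower end of detection, at 0.0897, 0.235, 0.0635 and 0.0747 FPKM in Adamts16+/- hearts, 0.0677, 0.123, 0.125 and 0.1008 FPKM in Adamts16+/H355Q hearts and 0.0324 to 0.235 FPKM (median 0.0647) in WT hearts, so its level does not check the labels. The heart label was matched by 13 of 13 cardiomyocyte markers passing the filter, with summed levels of 11517 to 15203 FPKM in Adamts16+/-, 13484 to 16204 FPKM in Adamts16+/H355Q and 12652 to 16402 FPKM in WT hearts. The WT libraries were not alike. On the first principal component of the tested genes other than the ribosomal protein genes, all 4 Adamts16+/- libraries and WT libraries 1 to 4 had negative scores, and all 4 Adamts16+/H355Q libraries and WT libraries 5 to 7 had positive ones. The labels give no batch for this split. Counts and medians of the ribosomal protein genes against WT are therefore given with all 7 WT libraries and without either subset. Genes outside the family are compared with all 7 WT libraries only.

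As a whole the ribosomal protein genes were lower in Adamts16+/- than in Adamts16+/H355Q hearts, with WT hearts spanning both. The mean of log2(FPKM + 0.5) over the 77 genes that passed the filter of a mean of at least 0.5 FPKM was 6.79, 6.92, 7.03 and 6.997 in Adamts16+/- libraries. It was 7.49, 7.37, 7.31 and 7.35 in Adamts16+/H355Q libraries and ran from 6.74 over a median of 7.05 to 7.66 in WT libraries. No Adamts16+/- library reached the lowest Adamts16+/H355Q library, while the WT range covered the range of both mutant groups. The 80 genes together took 3.24% to 3.68% of all FPKM in Adamts16+/- hearts, 4.34% to 4.77% in Adamts16+/H355Q hearts and 2.92% to 5.42% in WT hearts. Library 7 held the highest and library 4 the lowest share of the WT group. The mean was 6.88, 6.89, 7.05 and 6.74 in WT libraries 1 to 4 and 7.13, 7.41 and 7.66 in WT libraries 5 to 7. The mutant groups stood on opposite sides of the same split on the first principal component. Genotype and that split therefore cannot be told apart in the comparison of the mutant groups. A lower level in whole hearts can also mean fewer cells rich in these mRNAs or less of them per cell, which cannot be told apart here.

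**Figure D1:**
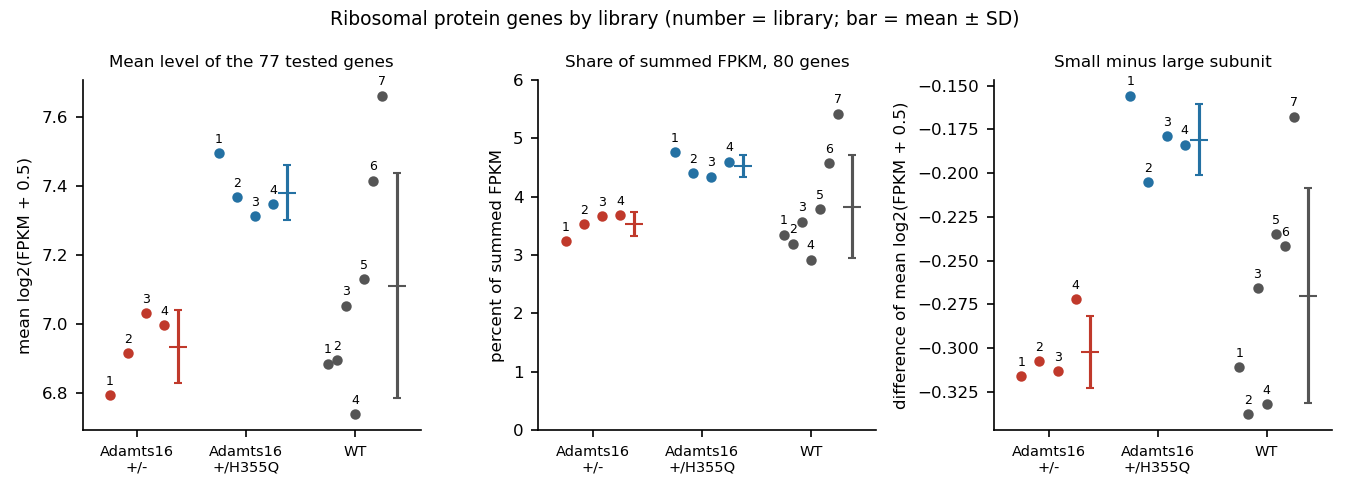
Mean log2(FPKM + 0.5) of the 77 tested ribosomal protein genes (left), the share of summed FPKM of all 80 (percent, middle) and the difference between small and large subunit means (log2, right), 1 point per library with its number, with group mean and SD. All 4 Adamts16+/- libraries lie below all 4 Adamts16+/H355Q libraries in each panel, and WT libraries 1 to 7 spread over both.

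In Adamts16+/- against Adamts16+/H355Q hearts, 15 of the 77 tested genes fell and 0 rose (limma on log2(FPKM + 0.5) over 15172 genes, adjusted p under 0.05). Over all tested genes 4.33% were called lower and 10.0% were called in either direction. The fitted difference was below 0 for 73 of the 77 genes, with a median of -0.45 on the log2 scale, against -0.02 over all tested genes. At an unadjusted p under 0.05, 51 of the 77 were past the threshold, against 28.9% of all tested genes. For 59 of the 77 every Adamts16+/- library lay below every Adamts16+/H355Q library, which held for 13.1% of all tested genes. The number of calls depended on the libraries and genes that entered the fit: it was 0 with no filter on low genes, 59 in a fit of the mutant libraries alone, 48 without WT library 7, 30 without WT library 4, 24 without WT library 6, and 0 without Adamts16+/- library 1 or 2 or Adamts16+/H355Q library 1 or 2. It was 1 without Adamts16+/- library 3, 7 without Adamts16+/H355Q library 3 and 3 without Adamts16+/H355Q library 4, while the median stayed between -0.48 and -0.40 when any 1 library was left out.

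**Figure D2:**
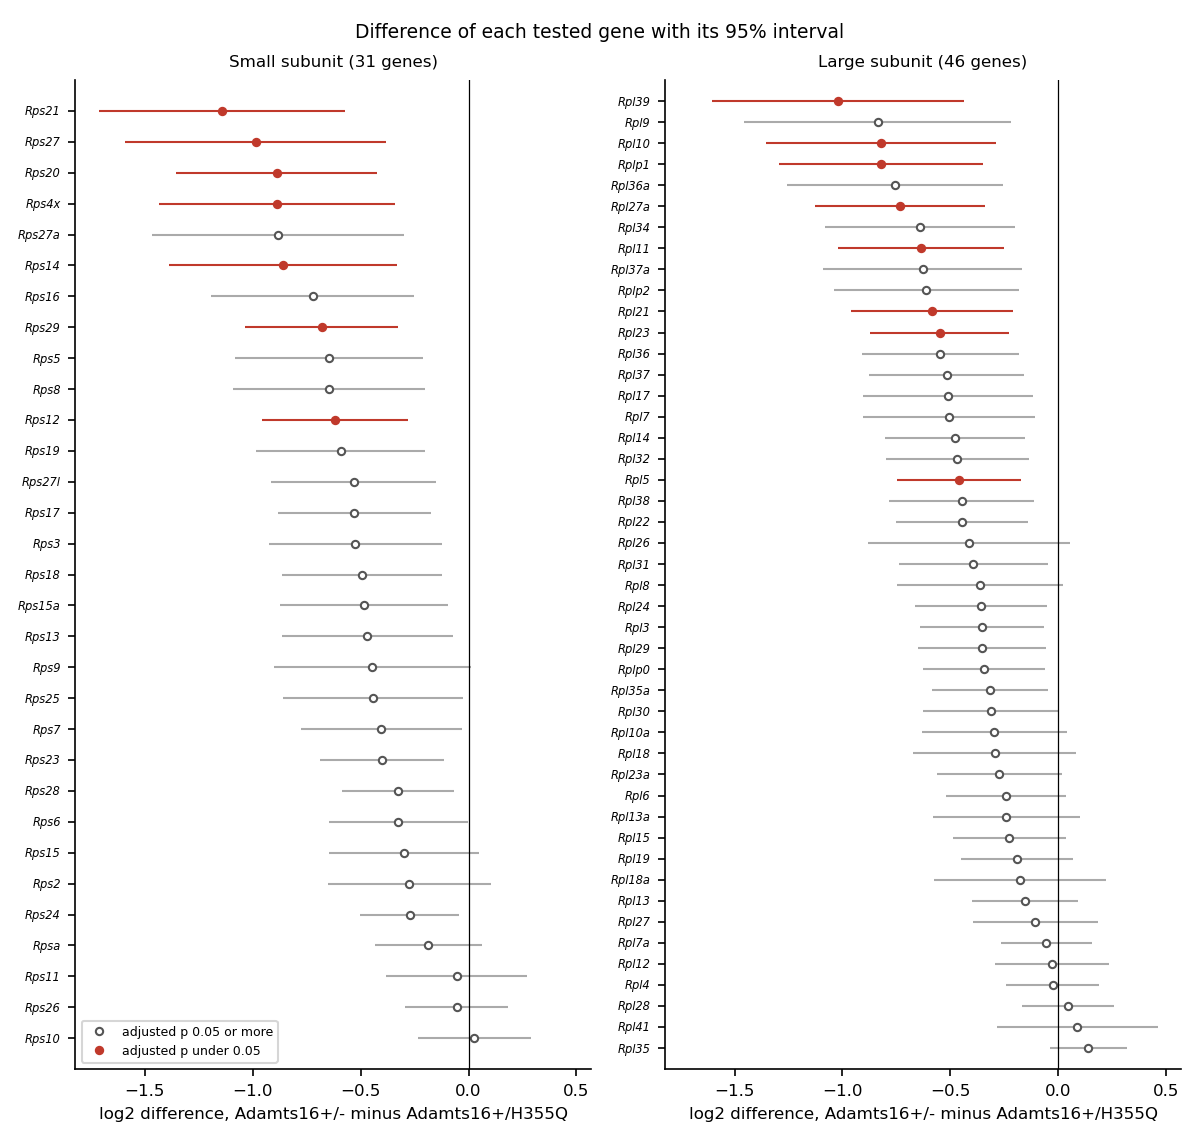
Fitted log2 difference (x axis, Adamts16+/- minus Adamts16+/H355Q) of each tested ribosomal protein gene with its 95% interval, small subunit left and large subunit right, filled where the adjusted p was under 0.05. The 15 filled points are all below 0, from -1.14 (Rps21) to -0.46 (Rpl5).

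Of the small subunit, 7 of 31 genes fell. Rps21, a small-subunit protein gene on chromosome 2 (GRCm38, 180257377 to 180258445), had 61.3, 70.5, 69.5 and 87.4 FPKM in Adamts16+/- hearts, against 174, 161, 149 and 152 FPKM in Adamts16+/H355Q hearts. In WT hearts it ran from 62.0 to 185 FPKM with a median of 79.8. Its mutant groups did not overlap, and the WT range reached from about the lowest Adamts16+/- library to above the highest Adamts16+/H355Q library. The difference was -1.14 ± 0.27 (log2, SE; limma adjusted p = 0.0209). Rps27, which codes for a zinc-finger protein, had 76.0, 83.8, 87.8 and 112 FPKM in Adamts16+/- and 192, 177, 168 and 170.3 FPKM in Adamts16+/H355Q hearts, a difference of -0.99 ± 0.28 (limma adjusted p = 0.041). Rps20, at a level low for the group, had 15.4, 19.5, 19.8 and 22.5 FPKM in Adamts16+/- hearts, against 48.5, 34.1, 31.4 and 31.8 FPKM in Adamts16+/H355Q hearts. The first Adamts16+/H355Q library was the highest for Rps20, and the difference was -0.89 ± 0.22 (limma adjusted p = 0.0243).

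Rps4x, an X-linked gene whose human counterpart has a copy on the Y chromosome, had 316, 348, 355.5 and 401 FPKM in Adamts16+/- and 687, 667, 613 and 652 FPKM in Adamts16+/H355Q hearts (log2 difference -0.89, limma adjusted p = 0.0419). Rps14, the gene lost in human 5q- syndrome, had 133, 119.7, 122 and 137 FPKM in Adamts16+/- and 249.8, 230.1, 218 and 233 FPKM in Adamts16+/H355Q hearts (-0.86, adjusted p = 0.0408). Both genes had groups that did not overlap. Rps29 and Rps12, which code for proteins of the subunit's head, fell by 0.68 ± 0.17 and 0.62 ± 0.16 on the log2 scale. Rps29 had 82.5, 99.8, 100.3 and 111 FPKM in Adamts16+/- and 180.0, 156, 159 and 137 FPKM in Adamts16+/H355Q hearts (limma adjusted p = 0.0239). Rps12 had 89.3, 107, 116 and 94.95 FPKM in Adamts16+/- and 159, 159, 147 and 159.5 FPKM in Adamts16+/H355Q hearts (limma adjusted p = 0.0281). In neither gene did an Adamts16+/- library reach an Adamts16+/H355Q library.

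Of the other small-subunit genes that the naming rule takes, none passed the test. Rps19, the gene most often mutated in Diamond-Blackfan anaemia, had 18.6, 21.2, 20.9 and 25.5 FPKM in Adamts16+/- and 35.6, 32.3, 31.5 and 30.9 FPKM in Adamts16+/H355Q hearts, groups apart at an adjusted p of 0.053. Rps6, the target of the S6 kinases, had 300.2, 326, 381 and 319.9 FPKM in Adamts16+/- and 416, 421, 397 and 425 FPKM in Adamts16+/H355Q hearts (adjusted p = 0.167), again without overlap. Rps15, the small-subunit gene of highest level, had 589.7, 566, 652 and 535 FPKM in Adamts16+/- and 806, 701, 689.5 and 684 FPKM in Adamts16+/H355Q hearts (adjusted p = 0.242). Rpsa, whose protein is also known as a laminin receptor, had groups that overlapped, at 391.7, 417, 465 and 387 FPKM in Adamts16+/- and 483, 472, 459.9 and 472 FPKM in Adamts16+/H355Q hearts. Its log2 difference was -0.19 ± 0.12 (adjusted p = 0.305).

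Of the large subunit, 8 of 46 tested genes fell. Rpl39, an X-linked gene for a short protein of the peptide exit tunnel, had 33.3, 39.6, 37.2 and 51.7 FPKM in Adamts16+/- hearts, against 89.6, 77.2, 76.6 and 83.1 FPKM in Adamts16+/H355Q hearts. In WT hearts its level ran from 33.7 to 103 FPKM with a median of 44.6. The mutant groups did not overlap and differed by -1.02 ± 0.27 (limma adjusted p = 0.0322), while WT libraries lay across nearly the whole range. Rplp1, a protein of the stalk that recruits translation factors, had 329, 373, 430.5 and 434 FPKM in Adamts16+/- and 810.1, 670.3, 659 and 624 FPKM in Adamts16+/H355Q hearts (-0.82 ± 0.22, adjusted p = 0.0331). Its stalk partner Rplp2 had 35.6, 39.3, 47.0 and 37.8 FPKM in Adamts16+/- and 74.8, 53.0, 56.7 and 61.1 FPKM in Adamts16+/H355Q hearts and missed the threshold (adjusted p = 0.0644). Rplp0, the stalk base and the gene of highest mean level, had 601, 650.0, 673 and 623 FPKM in Adamts16+/- and 862, 815, 773 and 786 FPKM in Adamts16+/H355Q hearts, groups that did not overlap at an adjusted p of 0.102.

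Rpl5 and Rpl11 code for the proteins that carry 5S ribosomal RNA and that bind Mdm2 when outside the ribosome. Rpl11 had 65.3, 68.6, 75.8 and 75.5 FPKM in Adamts16+/- and 113, 111, 108 and 112 FPKM in Adamts16+/H355Q hearts (-0.64 ± 0.18, limma adjusted p = 0.0393). Rpl5 had 123, 131, 144 and 141 FPKM in Adamts16+/- and 189, 184, 177 and 190.5 FPKM in Adamts16+/H355Q hearts (-0.46 ± 0.13, adjusted p = 0.0435). Both fell, without overlap of the mutant groups. Rpl10, an X-linked gene for a protein near the peptidyl transferase centre, had 96.4, 101.1, 99.95 and 112 FPKM in Adamts16+/- and 178, 196, 183 and 169 FPKM in Adamts16+/H355Q hearts (-0.82, adjusted p = 0.0493). Rpl27a had 58.7, 60.8, 67.0 and 64.6 FPKM in Adamts16+/- and 106, 106, 100.1 and 107 FPKM in Adamts16+/H355Q hearts (-0.73, adjusted p = 0.0263). Neither gene had overlapping mutant groups. Rpl23, whose protein lies at the interface of the subunits, fell by 0.55 ± 0.15 (adjusted p = 0.0342) and Rpl21 by 0.59 ± 0.18 (adjusted p = 0.0477) on the log2 scale.

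All 4 X-linked members, Rps4x, Rpl10, Rpl39 and Rpl36a, had mutant groups that did not overlap, a set chosen after its values were seen. The first 3 fell, and Rpl36a had 67.5, 67.0, 55.9 and 72.3 FPKM in Adamts16+/- and 122, 118, 82.5 and 127 FPKM in Adamts16+/H355Q hearts (adjusted p = 0.0538). The median log2 difference of the 4 was -0.85, against -0.45 over all 77 tested genes. Of the 77, 59 had mutant groups apart with Adamts16+/- lower, as did 13.1% of all tested genes. Differences this large were not confined to the X chromosome: Rps21 (chromosome 2) had -1.14 and Rps27 (chromosome 3) had -0.99.

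At the other end, 18 of the 77 genes had overlapping mutant groups, and the fitted difference of 4 of them was above 0. Rpl35, at the mouth of the exit tunnel, had 245, 261, 292 and 257 FPKM in Adamts16+/- and 243, 247, 231 and 235 FPKM in Adamts16+/H355Q hearts, with a median of 259 FPKM in WT hearts. Its log2 difference was 0.14 ± 0.08 (adjusted p = 0.288). Rpl4, among the 5 genes of highest level, had 562, 596, 660.1 and 609 FPKM in Adamts16+/- and 651, 609, 591 and 616 FPKM in Adamts16+/H355Q hearts (-0.03 ± 0.10, adjusted p = 0.895). Values of both genes lay close together in the 2 groups. Rpl23a, also among the highest 5 and a docking point of the signal recognition particle, had 454, 472, 496 and 488 FPKM in Adamts16+/- and 610.1, 583, 538 and 579 FPKM in Adamts16+/H355Q hearts, without overlap (adjusted p = 0.197).

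To show which genes moved apart from the rest, each library was shifted by the median of the ribosomal protein genes before the fit was repeated. In Adamts16+/- against Adamts16+/H355Q hearts 25 of the 77 genes then differed at an adjusted p under 0.05, 13 above the family and 12 below it. Because the shift uses the median of these same genes, a spread to both sides of it was fixed in advance. The shift moves every other gene too, and 44.5% of all tested genes were called in that fit. Lowest relative to the family were Rps21 (-0.71 ± 0.15, log2, SE), Rpl39 (-0.59) and Rps27 (-0.56). Highest were Rpl35 (0.57 ± 0.12), Rpl41 (0.52), Rpl28 (0.48) and Rps10 (0.46), of which the last 3 were named after their values were seen. Of the 12 below the family 8 were of the small subunit, and of the 13 above it 9 were of the large subunit. The 77 tested genes are 31 of the small and 46 of the large subunit. In Adamts16+/H355Q against WT hearts 2 genes departed, both below the family: Rpl35 by -0.43 ± 0.10 and Rpl12 by -0.34 ± 0.08. Of all tested genes 2.77% were called in that shifted fit, and with the replicate block, which drops WT libraries 5 to 7, 36 ribosomal protein genes departed. Between Adamts16+/- and WT hearts limma called 0 departures, with 2 at an unadjusted p under 0.05, and 0.145% of all tested genes.

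**Figure D3:**
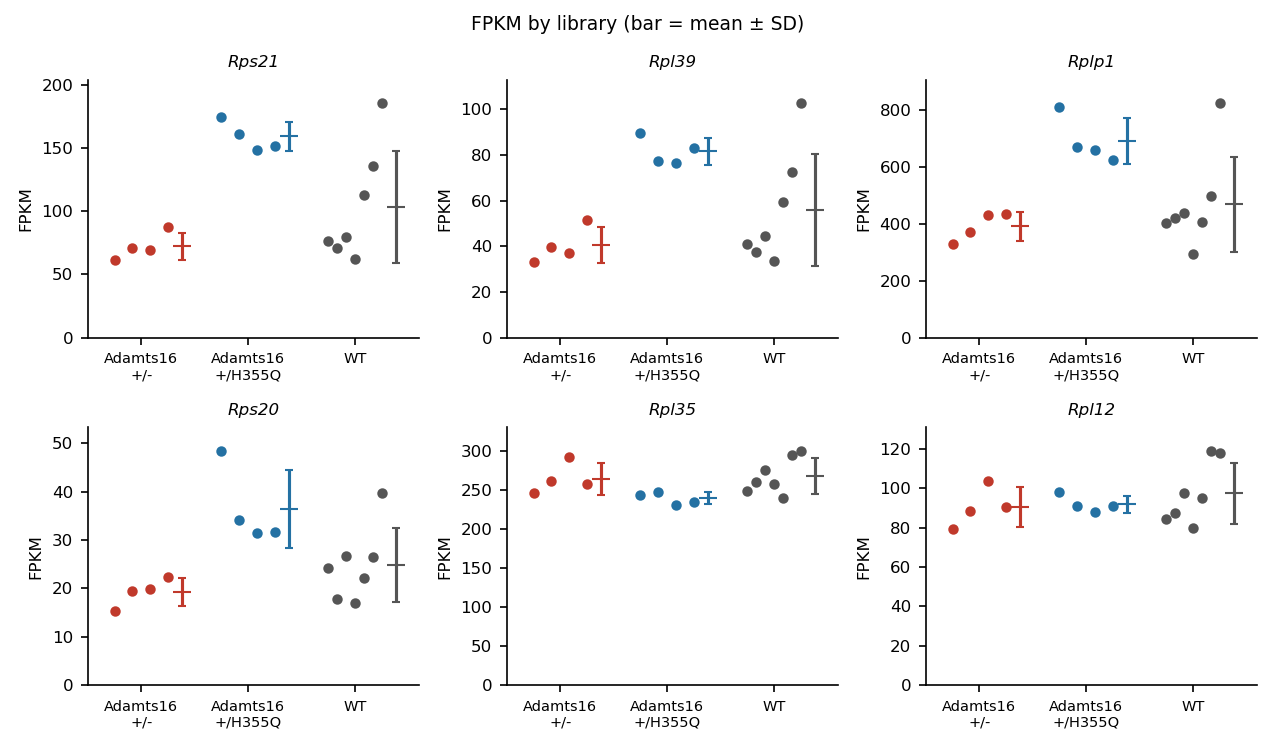
FPKM (y axis, from 0) in each library for Rps21, Rpl39, Rplp1, Rps20, Rpl35 and Rpl12, with group mean and SD. For the first 4 the Adamts16+/- points lie below the Adamts16+/H355Q points and WT points spread over both, while for Rpl35 and Rpl12 the mutant groups overlap.

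In Adamts16+/H355Q against WT hearts limma called 0 of the 77 genes. At an unadjusted p under 0.05 26 of them passed, against 18.3% of all tested genes, of which 0.376% passed after adjustment. The fitted difference was above 0 for 70 of the 77, with a median of 0.26 on the log2 scale and 0.02 over all tested genes. The smallest p-values belonged to Rpl27a, Rps12, Rplp1, Rps21 and Rpl14. Rpl27a had 106, 106, 100.1 and 107 FPKM in Adamts16+/H355Q hearts and 55.6, 66.0 and 122 FPKM at the lowest, median and highest WT library (log2 difference 0.52 ± 0.16, adjusted p = 0.132). Rplp1 had 810.1, 670.3, 659 and 624 FPKM in Adamts16+/H355Q hearts and 294, 422 and 823 FPKM in WT hearts (0.62 ± 0.20, adjusted p = 0.136). In both genes the WT range covered the mutant values. Rpl14 had 161, 150.2, 147 and 164 FPKM in Adamts16+/H355Q hearts and a WT median of 108 FPKM (range 95.8 to 177), at 0.40 ± 0.13 (adjusted p = 0.148). For Rps21 the difference was 0.72 ± 0.24 (adjusted p = 0.144) and for Rps12, with WT libraries between 93.8 and 179.6 FPKM (median 109), 0.44 ± 0.14 (adjusted p = 0.136).

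This comparison turned on which WT libraries were used. Without WT libraries 5 to 7, 61 of the 77 genes rose, with a median of 0.46, against 13.9% of all tested genes called higher in that fit. Without WT libraries 1 to 4 limma called 0, and the median was -0.04. Leaving out WT library 7 alone gave 33 genes that rose, with a median of 0.35 and 5.95% of all tested genes called higher.

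In Adamts16+/- against WT hearts limma called 0 of the 77 genes, and 1 passed at an unadjusted p under 0.05, against 2.75% and 19.6% of all tested genes. The fitted difference was below 0 for 74 of the 77 genes, with a median of -0.17 on the log2 scale and 0.01 over all tested genes. The gene past the unadjusted threshold was Rpl36, with 217, 227, 272 and 235 FPKM in Adamts16+/- hearts and 217, 308 and 397 FPKM at the lowest, median and highest WT library (-0.37 ± 0.15, adjusted p = 0.191). The next 4 by p were Rps14 (-0.42 ± 0.22, adjusted p = 0.305), Rpl10 (-0.39 ± 0.22, 0.345), Rps21 (-0.42 ± 0.24, 0.346) and Rps29 (-0.26 ± 0.15, 0.35). Their WT libraries ran from 119 to 303 FPKM for Rps14, from 93.8 to 233 FPKM for Rpl10 and from 84.1 to 172 FPKM for Rps29. All 5 had groups that overlapped. Here too the WT libraries decided the outcome: without WT libraries 5 to 7 the median was 0.05 with 0 genes called, and without WT libraries 1 to 4 it was -0.45 with 46 genes that fell, against 10.8% of all tested genes called lower in that fit. Without WT library 7 the median was -0.07. The 3 comparisons share libraries with each other, so their values are set side by side and not compared further.

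**Figure D4:**
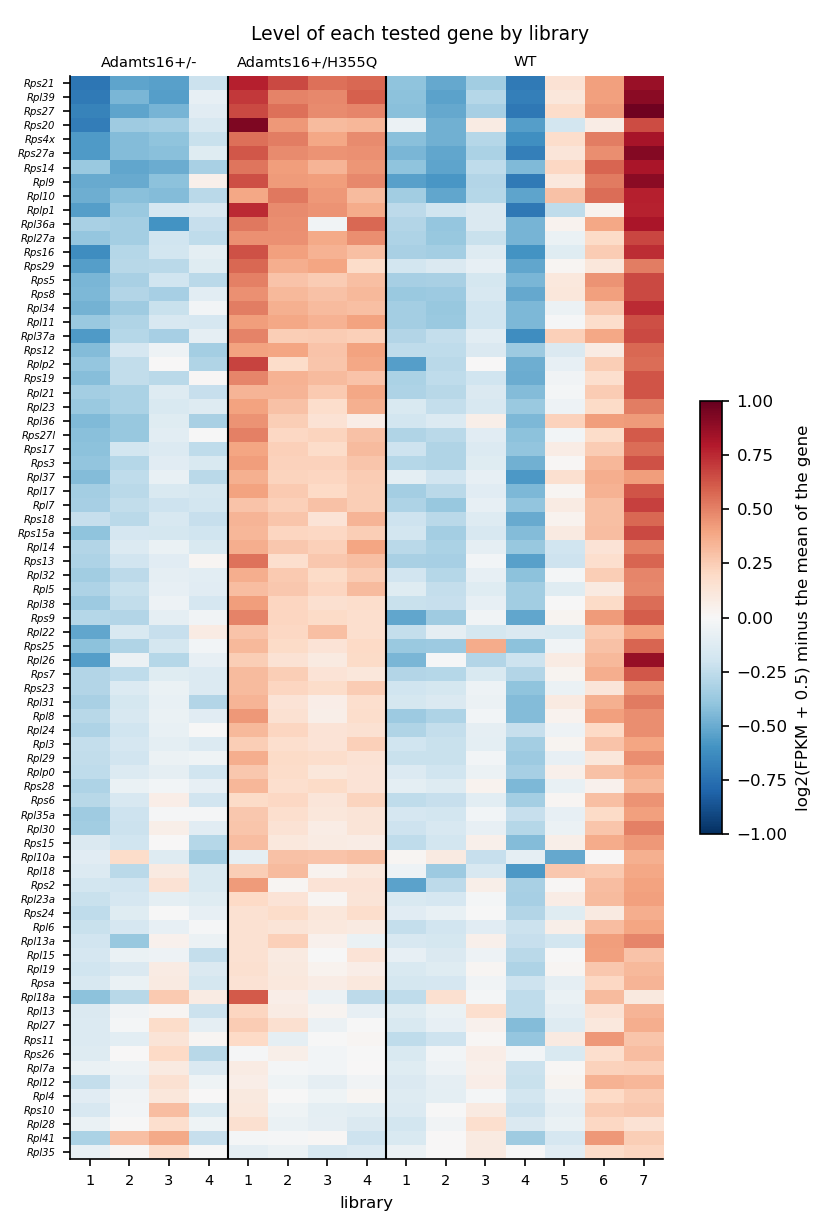
Level of each of the 77 tested ribosomal protein genes (rows, ordered by the log2 difference between Adamts16+/- and Adamts16+/H355Q) in each library (columns), as log2(FPKM + 0.5) minus the mean of the gene, from -1 (blue) to 1 (red). Most rows are blue in Adamts16+/- libraries, red in Adamts16+/H355Q libraries, blue in WT libraries 1 to 4 and mixed to red in WT libraries 5 to 7.

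The small subunit had the larger median difference. Between Adamts16+/- and Adamts16+/H355Q hearts the median log2 difference was -0.49 over 31 small-subunit genes and -0.38 over 46 large-subunit genes. Of the small subunit 26 of 31, and of the large 33 of 46, had mutant groups apart with Adamts16+/- lower. This held for 13.1% of all tested genes. In Adamts16+/H355Q against WT hearts the medians were 0.32 and 0.24, and in Adamts16+/- against WT hearts -0.19 and -0.16. Within each library the mean of the small subunit minus that of the large was -0.32, -0.31, -0.31 and -0.27 in Adamts16+/- libraries, -0.16, -0.21, -0.18 and -0.18 in Adamts16+/H355Q libraries and between -0.34 and -0.17 in WT libraries. Small-subunit genes made up 36.8% to 37.2% of the summed FPKM of the 80 genes in Adamts16+/- hearts, 38.6% to 39.0% in Adamts16+/H355Q hearts and 36.2% to 39.3% in WT hearts. The ranges of the mutant groups did not overlap on either measure, and the WT libraries spread over both, except that the first Adamts16+/H355Q library lay above all WT libraries in the difference of means. No p is given for a score over chosen genes.

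Shorter and longer ribosomal protein genes had like medians when length was taken as that of all annotated exons together. The median of this length over the 80 genes was 1754.5 bases. Low FPKM values matched steps of it only in part, and the length behind the FPKM is not stated. Set against Adamts16+/H355Q hearts, Adamts16+/- hearts had a median log2 difference of -0.45 both for 37 tested genes up to that length and for 40 longer ones, with 6 and 9 genes that fell. In Adamts16+/H355Q against WT hearts it was 0.26 for both, and in Adamts16+/- against WT hearts -0.18 for the shorter and -0.16 for the longer genes. Other protein-coding genes did differ by this length between Adamts16+/- and Adamts16+/H355Q hearts: their median was -0.23 under 1 kb (293 genes), -0.11 at 1 to 2 kb (1343), -0.04 at 2 to 4 kb (3758) and 0.03 over 4 kb (7133). Ribosomal protein genes in the same bins stood at -0.50 (10 genes), -0.40 (32), -0.45 (29) and -0.51 (6).

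The length of the principal spliced mRNA (271 to 3706 bases, median 705) gave another order of the genes than the exon total (383 to 6270 bases). By mRNA length, the median of the shorter minus that of the longer ribosomal protein genes was -0.09 in Adamts16+/- against Adamts16+/H355Q hearts, and by coding length -0.16. Across the 77 genes the log2 difference had a Spearman rho of 0.05 with exon total, 0.21 with mRNA length, 0.27 with coding length, 0.28 with the GC content of the mRNA and 0.29 with mean FPKM. Across the other protein-coding genes (12498 with an mRNA length) rho was 0.31 with mRNA length and 0.26 with GC content. All genes of 1 comparison share the same libraries, so these are descriptions. Whether length, GC content or RNA quality has a part in the difference was not tested.

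**Figure D5:**
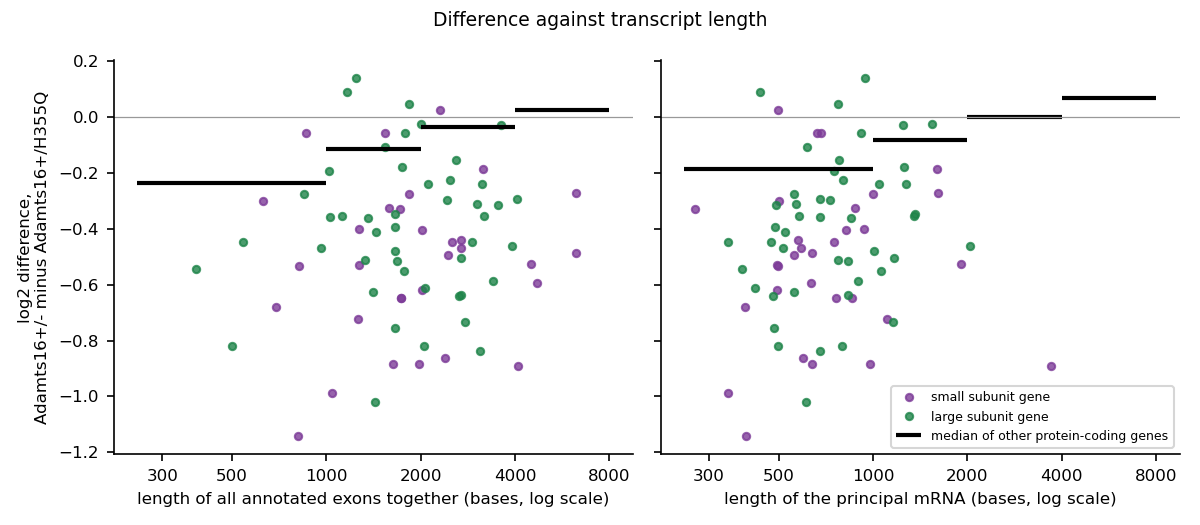
Fitted log2 difference (y axis, Adamts16+/- minus Adamts16+/H355Q) of each tested ribosomal protein gene against exon total (left) and principal mRNA length (right), both in bases on a log scale, with the medians of other protein-coding genes per length bin as black bars. Most points lie below the bar of their bin, and by exon total shorter genes do not lie lower than longer ones.

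Some genes had exon totals far above the length of their mRNA. Rps19 (633 bases of mRNA, 4685 of exons) and Rps15a (640 and 6270) had means of 26.0 and 45.8 FPKM over all libraries, against 723 FPKM for Rplp0 (1358 and 1659). Levels of different genes per length therefore depend on which length is used.

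The tissue-restricted copies Rpl10l, Rpl39l and Rpl3l were low in these hearts. Rpl10l, a retrocopy that stands in for Rpl10 in male meiosis, was listed at 0 in all 15 libraries. Rpl39l, a testis-biased copy of Rpl39, had 0, 0.0979, 0.0990 and 0.193 FPKM in Adamts16+/- hearts, 0.0829, 0.0907, 0.0828 and 0.0414 FPKM in Adamts16+/H355Q hearts and 0.0488, 0.0934 and 0.239 FPKM at the lowest, median and highest WT library, worth at most about 11.2 fragments. Its groups overlapped in every comparison. Rpl3l, which replaces Rpl3 in adult heart and skeletal muscle, had 0.192, 0.278, 0.138 and 0.193 FPKM in Adamts16+/- hearts, 0.635, 0.564, 0.216 and 0.306 FPKM in Adamts16+/H355Q hearts and 0.216, 0.434 and 0.505 FPKM at the lowest, median and highest WT library. The values correspond to about 10.9 to 61.6 fragments. For Rpl3l the difference between Adamts16+/- and WT hearts was -0.34 (log2; two-sided exact permutation p = 0.0121, adjusted over 6 tests 0.0727), and between Adamts16+/- and Adamts16+/H355Q hearts by -0.39 (exact p = 0.0571, adjusted 0.171). With 4 against 4 libraries the smallest exact p is 0.0286. None of the 6 tests passed after adjustment.

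Rpl3, the partner of Rpl3l, had 168, 177, 186 and 181 FPKM in Adamts16+/- hearts, 236, 222, 218 and 233 FPKM in Adamts16+/H355Q hearts and a median of 186 FPKM in WT hearts, and the mutant groups differed by -0.35 (adjusted p = 0.0978). Rps27l, a p53-responsive copy of Rps27, had 31.7, 32.6, 39.6 and 42.5 FPKM in Adamts16+/- and 60.5, 49.3, 49.6 and 52.3 FPKM in Adamts16+/H355Q hearts (-0.53, adjusted p = 0.0694). Both had mutant groups apart without passing the test. The 299 -ps copies, which share sequence with their parents, summed to 22.4% to 22.8% of the ribosomal protein total in Adamts16+/- hearts, 22.5% to 23.0% in Adamts16+/H355Q hearts and 22.2% to 22.9% in WT hearts. Of 95 copies tested, 31 fell and 4 rose in Adamts16+/- against Adamts16+/H355Q hearts, where 4.33% of all tested genes were called lower and 5.71% higher. How the counting split reads between parents and copies is not given in the sources used here, so single parents and copies are uncertain. With copies added to their parents 19 ribosomal protein genes fell.

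Genes with and without an annotated TOP-like start had like medians. The 22 such genes had a median log2 difference of -0.47 between Adamts16+/- and Adamts16+/H355Q hearts, with 3 that fell, and the other 55 tested genes -0.41, with 12. Among 19 TOP mRNA genes outside the ribosome (elongation and initiation factors, Npm1 and others) the median was -0.11. Of these Pabpc1, the poly(A)-binding protein, rose by 0.56 ± 0.12 (log2, SE, limma adjusted p = 0.0155), and none fell. Over all tested genes 5.71% were called higher and 4.33% lower, so 1 call among 19 genes is near that share.

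The few genes of ribosome assembly that passed the test were higher. Of 30 assembly factors 4 rose and 0 fell in Adamts16+/- against Adamts16+/H355Q hearts: Tcof1, the treacle protein of rRNA transcription (0.55 ± 0.11, limma adjusted p = 0.0135), Polr1a, the largest subunit of RNA polymerase I (0.33 ± 0.07, 0.0146), Bop1, a 60S assembly factor (0.30 ± 0.08, 0.0318), and Ubtf, a polymerase I factor (0.22 ± 0.07, 0.0482). The median of the 30 was 0.03, and 5.71% of all tested genes were called higher. Tcof1 (0.43 ± 0.10, adjusted p = 0.0321) and Polr1a (0.26 ± 0.06, 0.0335) also rose in Adamts16+/- against WT hearts, where 1.57% of all tested genes were called higher. Of 14 genes of mTORC1 and TOP control 2 rose in Adamts16+/- against Adamts16+/H355Q hearts, Larp1 (0.45 ± 0.08, adjusted p = 0.0111) and Myc (0.50 ± 0.12, 0.0216), and both rose against WT hearts too (0.36 ± 0.07, 0.0241, and 0.43 ± 0.11, 0.0437). In Adamts16+/H355Q against WT hearts limma called 0 of these 30 and 14 genes, with 7 and 1 at an unadjusted p under 0.05. Larp1 had 21.4 to 23.9 FPKM in Adamts16+/- hearts. Its WT values were 18.6 to 19.7 FPKM in libraries 1 to 4 and 15.2 to 16.9 FPKM in libraries 5 to 7. Adamts16+/- and WT values overlapped for Myc (5.22 to 6.36 and 3.15 to 5.32 FPKM) and Tcof1 (8.86 to 10.1 and 5.65 to 8.89 FPKM). They did not overlap for Larp1 and Polr1a.

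Some nuclear genes for parts of the mitochondrion fell, and most did not pass the test. Of 78 mitochondrial ribosomal protein genes 12 fell and 0 rose in Adamts16+/- against Adamts16+/H355Q hearts, with a median of -0.18, against 4.33% of all tested genes called lower. Of 91 tested genes picked by the symbol stems of respiratory chain subunits, 27 fell and 0 rose, with a median of -0.38. Ndufa2 of complex I was among those that fell (-0.84 ± 0.18, limma adjusted p = 0.0152). The stem Ndufa also takes the Ndufaf symbols of complex I assembly factors, so the list is not of subunits alone. The small RNA genes Mir6236 and mt-Tq, which are on none of the gene lists, ran opposite to the ribosomal protein genes. The level of mt-Tq was 18.4 to 23.2 FPKM in Adamts16+/- and 5.45 to 10.0 FPKM in Adamts16+/H355Q hearts. In WT hearts mt-Tq had 22.5 FPKM or more in libraries 1 to 4 and 5.48 FPKM or less in libraries 5 to 7. Mir6236 had 122, 56.6, 32.2 and 50.2 FPKM in Adamts16+/- hearts, 10.98, 8.30, 5.14 and 4.54 FPKM in Adamts16+/H355Q hearts and 3.75 to 116 FPKM in WT hearts, with 54.2 FPKM or more in libraries 1 to 4 and 9.74 FPKM or less in libraries 5 to 7. Their part in the ribosomal protein differences was not tested.

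Markers of cell types were also measured beside these values. The summed level of 9 endothelial markers, all tested, was 190.0 to 196 FPKM in Adamts16+/- hearts, 154 to 161 FPKM in Adamts16+/H355Q hearts and 138 to 212 FPKM in WT hearts, with 1 marker called higher and 1 lower between the mutant groups. The 16 erythroid markers summed to 20007 to 30753 FPKM in Adamts16+/-, 15252 to 34417 FPKM in Adamts16+/H355Q and 15802 to 32816 FPKM in WT hearts. Of these 3 rose in Adamts16+/- against Adamts16+/H355Q hearts (Ermap, Slc4a1 and Epb42), where 5.71% of all tested genes were called higher. In Adamts16+/- against WT hearts 4 rose (Ermap by 1.03, Epb42 by 0.92, Slc4a1 by 0.87 and Hbb-bh1 by 2.54, log2). There 1.57% of all tested genes were called higher. The median over the 16 erythroid markers was 0.34 in the first comparison and 0.11 in the second. Hbb-bh1 had 11.8 to 20.2 FPKM in WT libraries 1 to 4 and 2.76 to 5.88 FPKM in WT libraries 5 to 7. Of the 13 cardiomyocyte markers, Myl3 (-0.73 ± 0.18, log2, SE), Tnnc1 (-0.52 ± 0.11) and Myl2 (-0.34 ± 0.10) were lower in Adamts16+/- than in Adamts16+/H355Q hearts. Myh6 (0.57 ± 0.15) was higher. The median of the 13 was -0.04 between these groups, where 10.0% of all tested genes were called in either direction. Against WT hearts Tnni3 (-0.44 ± 0.11, limma adjusted p = 0.0437) and Postn, of the fibroblast list (-0.41 ± 0.11), were lower in Adamts16+/- hearts. Postn was at the threshold, with a limma adjusted p that rounds to 0.05. In that comparison 2.75% of all tested genes were called in either direction. The 8 lung epithelium markers summed to 1.07 to 13.2 FPKM in Adamts16+/-, 0.363 to 6.82 FPKM in Adamts16+/H355Q and 0.299 to 100 FPKM in WT hearts, the highest in WT library 7. The 8 liver markers summed to 7.49 to 18.8 FPKM in Adamts16+/-, 9.91 to 33.9 FPKM in Adamts16+/H355Q and 5.84 to 51.2 FPKM in WT hearts. The 10 fibroblast and epicardium markers summed to 406 to 507 FPKM in Adamts16+/-, 411 to 464 FPKM in Adamts16+/H355Q and 449 to 647 FPKM in WT hearts. The 8 macrophage markers summed to 54.0 to 72.8 FPKM in Adamts16+/-, 58.4 to 75.7 FPKM in Adamts16+/H355Q and 57.4 to 87.3 FPKM in WT hearts. Of liver and lung epithelium markers 6 and 5 passed the filter, and limma called 0 of these and of the fibroblast and macrophage markers between the mutant groups, with 0, 0, 3 and 2 at an unadjusted p under 0.05. At that limma threshold 7 of the 9 endothelial, 7 of the 16 erythroid and 5 of the 13 cardiomyocyte markers passed, against 28.9% of all tested genes. The median log2 difference of the endothelial markers between the mutant groups was 0.27. At the adjusted threshold 10.0% of all tested genes were called there in either direction. No marker of these lists was at 0 in every library, and their part in the ribosomal protein differences was not tested.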

How the data were processed

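RNA was measured by sequencing in 15 libraries of mouse hearts at embryonic day 14.5. Per the labels' protocols, TRIzol was used for extraction and the VAHTS Universal V6 kit for library construction. The tools named are fastp, HISAT2, HTSeq, R 3.2.0 and DESeq2, per the submitters' processing notes, which give neither role nor order. The authors deposited FPKM values for 55335 genes. The program behind the FPKM, the build, the annotation and the strand setting are not stated in those notes or protocols. Of the identifiers, 55154 matched GENCODE vM21 (GRCm38), from which gene class, position and length were taken. Low FPKM values in long genes fell in steps of the summed exon length: 58.4% to 65.2% of those under 6 fragments lay within 0.1 of a whole number, so depth is an estimate and no count test was run.

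Values were analysed as log2(FPKM + 0.5), so fold changes of low genes are understated. Those averaging 0.5 FPKM or more (15172 genes, of which 77 ribosomal protein genes) entered 1 fit over all 15 libraries with limma 3.58.1 (trend, R 4.3.3), adjusted by Benjamini-Hochberg over all of them, with calls at an adjusted p under 0.05. The 3 ribosomal protein genes below the filter were compared by two-sided exact permutation tests (scipy 1.17.1), except Rpl10l, which is listed at 0. The fit was tested on simulated data in which genes varied independently and libraries had no split. That test cannot check calls on genes that move together or along such a split. Members, lists and tests were chosen with earlier results of these data known. Named are the 5 genes of highest mean level, the 5 of smallest p in each comparison, copies and their partners, Rpsa, the stalk genes, Rps6, Rps19, Rpl5, Rpl11 and genes below the filter; further genes were named after their values were seen. Alternatives changed the pseudocount, filter, scaling, weights, block, length measure and libraries. No sequence is shown for 2 members on chromosome 18 (Rps14 and Rpl17). A list of ribosomal genes outside the naming pattern is not reported here as a whole.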

Additional observations from a re-analysis of the deposited data

Results flagged for a closer look

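In 8 of 102 groups of 4 or 7 libraries checked, 1 library stood far from the others of its group; chance gives about 5% of such groups. WT library 7 was the highest WT library for Rplp1, at 822.8 FPKM against 294 to 496 FPKM in the other WT libraries, for Rps12, at 179.6 FPKM against 93.8 to 128 FPKM, and for Rps20, at 39.8 FPKM against 17.0 to 26.6 FPKM. In Adamts16+/H355Q hearts, library 1 was the highest for Rps15, at 806.1 FPKM against 684 to 701 FPKM, and for Rps20, at 48.5 FPKM against 31.4 to 34.1 FPKM. Library 3 of that group was the lowest for Rpl27a, at 100.1 FPKM against 105.8 to 106.6 FPKM, and for Rps12, at 147.3 FPKM against 158.8 to 159.5 FPKM. Library 4 was the lowest for Rpl39l, at 0.0414 FPKM against 0.0828 to 0.0907 FPKM, a gap of about 2 fragments.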

How the results depend on the processing

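Between Adamts16+/- and Adamts16+/H355Q hearts the number of ribosomal protein genes that fell, 15, was 0 with no filter, 7 with TPM scaling, 23 with median of ratios scaling, 25 with quantile normalization, which also called 2 higher, 28 when rescaled to the other protein-coding genes and 30, with 1 higher, when the length trend was removed. It was 58 with array weights, 57 with the replicate block and without WT libraries 5 to 7, 59 with only the groups compared and 52 without WT libraries 1 to 4. Leaving out 1 library gave 0 to 48. The short minus long median, 0.00, was 0.0345 with no filter, 0.0708 with the length trend removed, 0.0688 with copies added, -0.16 by protein length, -0.0881 by principal mRNA length, and -0.0325 to 0.0269 without 1 library. The small minus large median, -0.12, was -0.19 with copies added.

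In Adamts16+/H355Q against WT hearts the number that rose, 0, was 44 with array weights, 60 with the replicate block, 61 without WT libraries 5 to 7 and 0 to 33 without 1 library, the highest without WT library 7. The median, 0.26, was -0.0393 without WT libraries 1 to 4. The small minus large median, 0.08, was 0.16 with the replicate block and without WT libraries 5 to 7, 0.0240 without WT libraries 1 to 4 and 0.14 with copies added. The short minus long median, 0.00, was -0.0333 with array weights and 0.0721 by protein length. Departures from the family level, 2, were 36 with the block.

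Between Adamts16+/- and WT hearts the number that fell, 0, was 46 without WT libraries 1 to 4, with a median of -0.45 and a small minus large median of -0.10, which was 0.0138 with the replicate block and without WT libraries 5 to 7. The short minus long median, -0.02, was 0.0158 with the length trend removed, -0.0759 by protein length and -0.0526 by principal mRNA length. The difference of Rpl10 turned to 0.0187 with the replicate block and without WT libraries 5 to 7.

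Where an alternative left out libraries or genes, it also changed the shared spread; other causes were not tested. Deviations of same-numbered libraries from their group means were only weakly correlated (-0.23 to 0.21). With so few libraries per group, and WT means taken over all 7 WT libraries, this check cannot exclude a pairing by number. The block drops WT libraries 5 to 7, whose numbers no mutant library shares. Of the values of single genes, 140 in Adamts16+/- against Adamts16+/H355Q hearts missed the threshold under an alternative and 312 kept their direction and side of it. Principal mRNA length and added copies were chosen after seeing the data. Depth limits Rpl3l and Rpl39l, at about 61.6 fragments or fewer.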
